A study of Mus musculus with 4 samples.

Results

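The 4 TEAD genes Tead1, Tead2, Tead3 and Tead4, with the 2 genes of their co-activators, Yap1 and Wwtr1 (whose protein is TAZ), were examined in single-nucleus chromatin accessibility data from mouse mammary epithelium. These are 6 genes chosen by name among the 21631 genes counted, and the Tead3 and Tead4 motifs are 2 of the 427 motifs that the authors scored. The genes also had 10 promoter regions of 19204 and 191 distal regions of 145453 in or near them. Each distal region had its midpoint within 50000 bases of a gene of the set.

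TEAD proteins bind DNA and activate little on their own. YAP and TAZ, which bind no DNA themselves, join TEADs in the nucleus when the Hippo kinases STK3, STK4, LATS1 and LATS2 are inactive. When these kinases are active, YAP and TAZ are phosphorylated and held in the cytoplasm. VGLL proteins compete for the same TEAD surface. In the mammary gland the pathway is known for its part in keeping basal and luminal cells apart and in growth of the epithelium.

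The fetal group held 2 libraries from CD1 mice at embryonic day 18, and the adult group held 2 libraries from CD1 mice aged 8 weeks. The labels give no allele, transgene or treatment in either group and call the libraries of a group biological replicates, without saying how many animals were pooled. All cells had been sorted as EpCAM+ and Lin-, so the sort had selected epithelium at both stages. The labels name no date or run, so stage cannot be told apart from a batch that follows it. Each fetal library used 16 tagmentation wells and each adult library 32, so this number also follows stage. The authors listed 882 and 1695 fetal nuclei and 2465 and 2804 adult nuclei, in replicates 1 and 2, with no barcode shared between libraries. These nuclei held 6028168 to 19304830 reads per library.

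Each nucleus carries 1 of 14 class numbers from the authors, with no cell type name. A marker was called raised in a class when its log2 level stood at least 0.5 above the other classes. Of 11 basal markers, 10 were raised in classes 1 and 8, which are called adult basal here. Of 10 luminal progenitor markers, 7 were raised in class 3 and 8 in class 7 (adult luminal progenitor), and of 10 mature luminal markers, 9 were raised in class 2 and 8 in class 11 (adult mature luminal). Fetal class 4 raised 8 of the 11 basal markers and is called basal-like, and fetal classes 9 and 5 each raised 5 of the 10 luminal progenitor markers. Class 12 raised 5 basal and 4 luminal progenitor markers. Classes 9, 5 and 12 are kept by number, and class 9 was the one set against class 4. Stromal markers were all raised in class 6 (8 of 8). Of the classes compared here, class 12 raised 3 of the 8 (Col1a1, Pdgfra and Lum), and classes 4 (Pdgfrb and Fn1) and 8 (Col3a1 and Dcn) raised 2. The authors defined the classes from these same accessibility data, and the classes share libraries, so a test between classes measures only how far the libraries repeat a difference. For whole libraries the p-values measure the spread between 2 libraries a group. Within a stage the library was a block, so they measure how far class differences vary between libraries. Comparisons of a fetal class with an adult group had no block. There the classes of 1 library counted as separate columns, so those p-values may overstate the replication.

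The short word GGAATG, or CATTCC on the other strand, is the core of the sequence that TEADs are known to bind. It was looked for in 250 bases before and 50 bases after the RefSeq start of each gene (build GRCm38.p6, both strands). The word stood in 14.7% of all 32851 such windows. It stood in 5 of the 7 windows of the 4 genes of the set that the table covers, namely at Yap1, Wwtr1 and Tead3 but not at Tead2. The 2 windows of Wwtr1 overlap and hold the same word, so the 5 windows are not 5 separate matches. The bases before the start are printed for these 3 genes because each gene's own promoter carries the word, shown in capitals, 5′ to 3′ on the gene's strand.
Yap1: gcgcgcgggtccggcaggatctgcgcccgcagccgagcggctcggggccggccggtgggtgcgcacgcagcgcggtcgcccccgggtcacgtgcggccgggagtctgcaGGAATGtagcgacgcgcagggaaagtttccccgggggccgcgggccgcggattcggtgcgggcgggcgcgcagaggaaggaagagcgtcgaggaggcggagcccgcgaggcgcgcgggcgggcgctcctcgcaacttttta
Wwtr1: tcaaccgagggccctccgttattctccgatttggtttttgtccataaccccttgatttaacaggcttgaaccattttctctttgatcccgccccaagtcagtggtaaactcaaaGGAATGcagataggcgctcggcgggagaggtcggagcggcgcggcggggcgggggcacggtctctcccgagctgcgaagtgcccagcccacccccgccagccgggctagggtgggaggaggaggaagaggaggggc
Tead3: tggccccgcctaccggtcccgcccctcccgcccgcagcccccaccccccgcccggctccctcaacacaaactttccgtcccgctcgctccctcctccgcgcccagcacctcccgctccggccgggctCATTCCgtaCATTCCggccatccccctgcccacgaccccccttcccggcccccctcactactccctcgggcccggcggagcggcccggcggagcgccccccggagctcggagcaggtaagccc
These windows lie on the minus strand at chr9:8004597-8004846, chr3:57575911-57576160 and chr17:28350601-28350850. The word begins 141 bases before the start of Yap1. RefSeq gives Wwtr1 2 starts, and the same word begins 136 bases before the one printed and 170 before the other. Of the 3 Tead3 starts, the one printed has words at 123 and at 114 bases before it and 1 more at 3 bases after it. Another has a word 182 bases before it, and the window of the third start has none. A match describes the letters only and is not a binding site.

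The TEAD motif score separated the adult lineages. It was highest in adult basal nuclei and lowest in mature luminal nuclei, while the fetal classes lay between. The score is the chromVAR deviation deposited by the authors, a relative value near 0 that says whether regions with the motif hold more or fewer reads than expected in a nucleus. The mean Tead4 score was 0.853 and 0.881 in the 2 libraries of adult basal nuclei, 0.307 and 0.651 in luminal progenitors, and -0.729 and -0.690 in mature luminal nuclei. The lowest basal value lay above the highest progenitor value, and every mature luminal value lay below 0. Tead3 scores were 0.553 and 0.491, 0.294 and 0.541, and -0.528 and -0.553 in the same order, so basal and progenitor values overlapped for Tead3.

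Both Tead columns, 2 of 2, were higher in luminal progenitors than in mature luminal nuclei, by 0.96 for Tead3 (adjusted p 3.55e-05) and 1.19 for Tead4 (adjusted p 2.94e-06, limma with Benjamini-Hochberg adjustment). In that comparison 63.0% of all motifs passed and 26.7% passed in this direction. Against the same progenitors, 1 of 2 columns was higher in basal nuclei, where 59.5% of motifs passed and 22.0% were higher. This was Tead4, by 0.39 (SE 0.11, adjusted p 0.0107), and without adult replicate 1 the difference was 0.23 (adjusted p 0.262). For Tead3 it was 0.10 (adjusted p 0.479). The sizes are modest beside lineage motifs in the same nuclei: Trp63, the motif of the basal factor p63, differed by 4.36 between basal and progenitor nuclei, and Foxa1, the motif of a luminal pioneer factor, by -5.14 between progenitor and mature luminal nuclei.

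**Figure D1:**
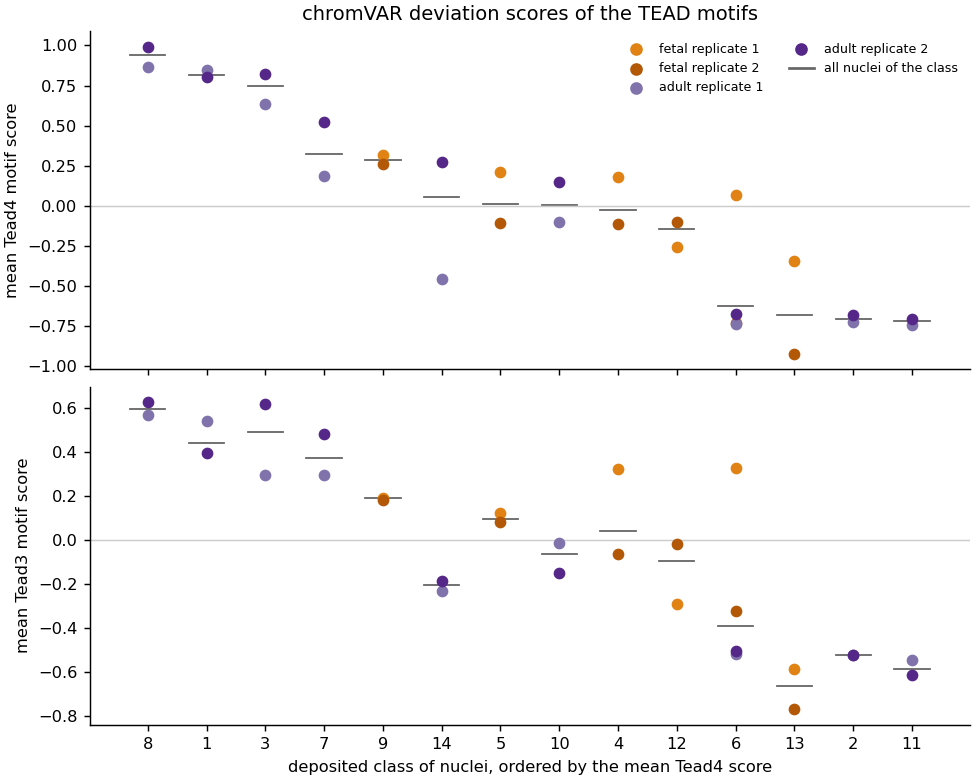
Mean chromVAR score of the Tead4 and Tead3 motifs (y axes, relative units) in each of the 14 deposited classes (x axis, ordered by Tead4). Points are single libraries and the line marks all nuclei of a class. Classes 8 and 1 lie highest for Tead4, at 0.940 and 0.816, and classes 2 and 11 lie lowest, at -0.706 and -0.718.

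Among the fetal classes the Tead4 score was 0.180 and -0.115 in the basal-like class 4, and 0.319 and 0.259 in class 9. The difference of -0.26 did not pass (adjusted p 0.0857, limma), and 0 of 2 columns passed where 44.7% of motifs did. The fetal basal-like class was lower than adult basal nuclei in 2 of 2 columns, where 43.1% of motifs passed and 24.1% were lower, by 0.83 for Tead4 (adjusted p 0.000335) and 0.39 for Tead3 (adjusted p 0.0202). The Tead3 call was lost without either adult library (adjusted p 0.0866 and 0.130) and without fetal replicate 2, where the difference was -0.20 (adjusted p 0.121). Over nuclei at or above the median depth it was -0.60. The basal minus luminal difference was 0.64 higher in adult than in fetal nuclei for Tead4 (SE 0.16, adjusted p 0.0124), 1 of 2 columns, where 25.1% of motifs passed and 11.5% did so upward. It did not pass without fetal replicate 2 (adjusted p 0.0780) or without adult replicate 1 (adjusted p 0.157). Between fetal class 9 and adult luminal progenitors 0 of 2 columns passed, against 56.9% of motifs, with differences of -0.23 and -0.19. Between classes 5 and 9 it was 0 of 2 against 31.4%. Over whole libraries, fetal minus adult was 0.07 for Tead3 and 0.06 for Tead4, and 0 of 2 columns passed against 67.9% of motifs.

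Within classes the score varied widely, with an SD over nuclei of 1.08 to 1.57 for Tead4. Class 6, the stromal-like nuclei, had a mean Tead4 score of -0.627. There fetal replicate 1 stood apart at 0.0658 on 23 nuclei. Over all 7846 nuclei the Tead3 and Tead4 scores had a Pearson r of 0.451 and over the 14 class means an r of 0.967, as 2 scores read from the same reads. The columns next most like Tead4 and Tead3 over the 14 classes were Smad2 and Smad3, which are identical, with an r of 0.827 and 0.794. The Tead4 score and the read depth of a nucleus had an r of -0.0611 over all nuclei. Within classes this r was 0.116 and 0.219 in the basal classes 1 and 8. It was 0.0750 and 0.0705 in the progenitor classes 3 and 7. In the mature luminal classes 2 and 11 it was -0.206 and -0.252.

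Wwtr1, which encodes TAZ, had the largest difference among the 6 gene spans in the comparisons made here, between adult luminal progenitors and mature luminal nuclei. Levels are RPM, reads scaled to 1000000 reads of the group, and over gene spans they are given per kb of the span with 2000 bases on either side. Over chr3:57455644-57575910 (gene ID 97064) Wwtr1 stood at 1.95 and 2.07 in adult basal nuclei, 2.50 and 2.27 in luminal progenitors, and 0.843 and 0.833 in mature luminal nuclei. No library of mature luminal nuclei came near the other adult groups. Fetal libraries lay between them, at 1.45 and 1.39 in class 4, 1.50 and 1.39 in class 9, 0.993 and 1.11 in class 5, and 0.946 and 1.10 in class 12. In order of level, classes 4 and 9 overlapped with each other, as did classes 5 and 12.

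Progenitors exceeded mature luminal nuclei 2.84-fold at Wwtr1 (log2 1.51, SE 0.11, adjusted p 2.64e-18, edgeR quasi-likelihood test with Benjamini-Hochberg adjustment). The difference was seen in each pair of classes: 1.67 and 1.67 on the log2 scale in the 2 adult libraries between classes 7 and 2, and 1.32 and 1.17 between classes 3 and 11. Basal and progenitor nuclei differed by -0.12 (adjusted p 0.492). Fetal class 9 was lower than adult progenitors by 0.74 (SE 0.13, adjusted p 0.000254), and class 4 was lower than adult basal nuclei by 0.51 (SE 0.14, adjusted p 0.0172), a call lost without either fetal library or adult replicate 2 (adjusted p 0.0741 to 0.161). Class 5 was lower than class 9 by 0.49 (adjusted p 0.0346), a call that no alternative without a library kept. Of the 2 Wwtr1 promoter regions, chr3:57575294-57576293 had group means from 30.3 RPM in mature luminal nuclei to 40.6 in class 9. The other, chr3:57573525-57574524, held few reads, with means of 7.27 RPM in basal nuclei, 5.77 in progenitors and 2.01 in mature luminal nuclei. Its mature luminal libraries, at 2.44 and 1.59, lay below those of progenitors, at 5.11 and 6.42. Promoter regions were not tested between progenitors and mature luminal nuclei.

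Over its whole span Yap1, the gene of YAP, differed little between groups. Over chr9:7931999-8004638 (gene ID 22601) it stood at 1.53 and 1.71 in basal nuclei, 1.32 and 1.39 in progenitors and 1.26 and 1.28 in mature luminal nuclei. Basal values lay above the others in both libraries, 1.30-fold above progenitors (log2 0.38, SE 0.14, adjusted p 0.0389, edgeR). The call was lost with no low-count filter, with total reads as library size, under DESeq2, without the library block and without either adult library (adjusted p 0.0617 to 0.441). In fetal nuclei the levels were 1.55 and 1.32 in class 4 and 1.14 and 1.22 in class 9 (log2 0.38, adjusted p 0.106). The 2 fetal classes did not overlap, and the order was the same as in the adult. Over whole libraries Yap1 ran from 1.26 to 1.39.

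Tead4, known as the TEAD of the early embryo's trophectoderm, was most open over its span in luminal progenitors. Over chr6:128227143-128300813 (gene ID 21679) it stood at 1.55 and 1.10 in basal nuclei, 2.98 and 3.11 in progenitors and 1.85 and 1.79 in mature luminal nuclei, so the 3 adult groups did not overlap. Basal nuclei were 2.17-fold below progenitors (log2 -1.12, SE 0.13, adjusted p 1.5e-10, edgeR), and progenitors were 1.67-fold above mature luminal nuclei (log2 0.74, SE 0.12, adjusted p 1.15e-06). The Tead4 promoter region with more reads, chr6:128299925-128300924, differed little. It averaged 28.6 RPM in basal nuclei, 33.9 in progenitors and 32.2 in mature luminal nuclei (basal minus progenitor -0.15, adjusted p 0.823, edgeR). By class, the Tead4 span ran from 0.645 in class 6 and 1.08 in class 8 to 3.39 in class 7. So the Tead4 gene span was least open among adult epithelial groups in the nuclei where the Tead4 motif score was highest. TEADs share the core word, so the score cannot be assigned to the Tead4 gene alone. Over 14 classes the r of gene level and motif score was 0.177. For the same motif it was 0.828 with the Wwtr1 gene, 0.392 with Tead1 and 0.172 with Yap1. With Tead3 it was -0.142 and with Tead2 -0.502. These values are a description because all classes share libraries and reads.

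The Tead4 difference between basal and luminal nuclei was larger in the adult than in the fetus. Levels were 1.39 and 1.43 in fetal class 4 and 1.80 and 1.99 in class 9, without overlap (log2 -0.29, adjusted p 0.225). The adult step exceeded the fetal one by 0.83 in size (log2 -0.83, SE 0.19, adjusted p 0.00315, edgeR). Without adult replicate 2 that difference was -0.54 (adjusted p 0.325). Fetal class 9 was lower than adult progenitors by 0.70 (SE 0.14, adjusted p 0.00167), lost without fetal replicate 1 (adjusted p 0.0749).

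The other TEAD genes differed less between lineages. Tead1 (gene ID 21676, chr7:112679356-112906784), a widely expressed TEAD needed for heart growth, stood at 1.51 and 1.34 in progenitors and 1.17 and 0.985 in mature luminal nuclei. The step of 0.41 passed (SE 0.10, adjusted p 0.000711, edgeR), but not without either adult library (adjusted p 0.0561 and 0.0588). Tead3 (gene ID 21678, chr17:28331671-28350805) was the most open TEAD gene per kb in fetal nuclei and in adult basal and mature luminal nuclei. In adult progenitors its mean of 2.96 lay just below that of Tead4, 3.04. Fetal class 4, at 4.01 and 3.03, overlapped adult basal nuclei, at 3.75 and 2.74. Class 9 stood at 4.50 and 4.59 against 2.98 and 2.94 in adult progenitors. Fetal minus adult was 0.60 there (SE 0.17, adjusted p 0.0209), a call that no omission of a single library kept and that was lost with the span without flanks (0.49, adjusted p 0.101). The windows of Rpl10a and Tulp1 overlap that of Tead3. Tead2 (gene ID 21677, chr7:45215792-45233468) held few reads, at 0.531 to 2.02 per kb, passed in no comparison, and shares its window with Cd37.

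**Figure D2:**
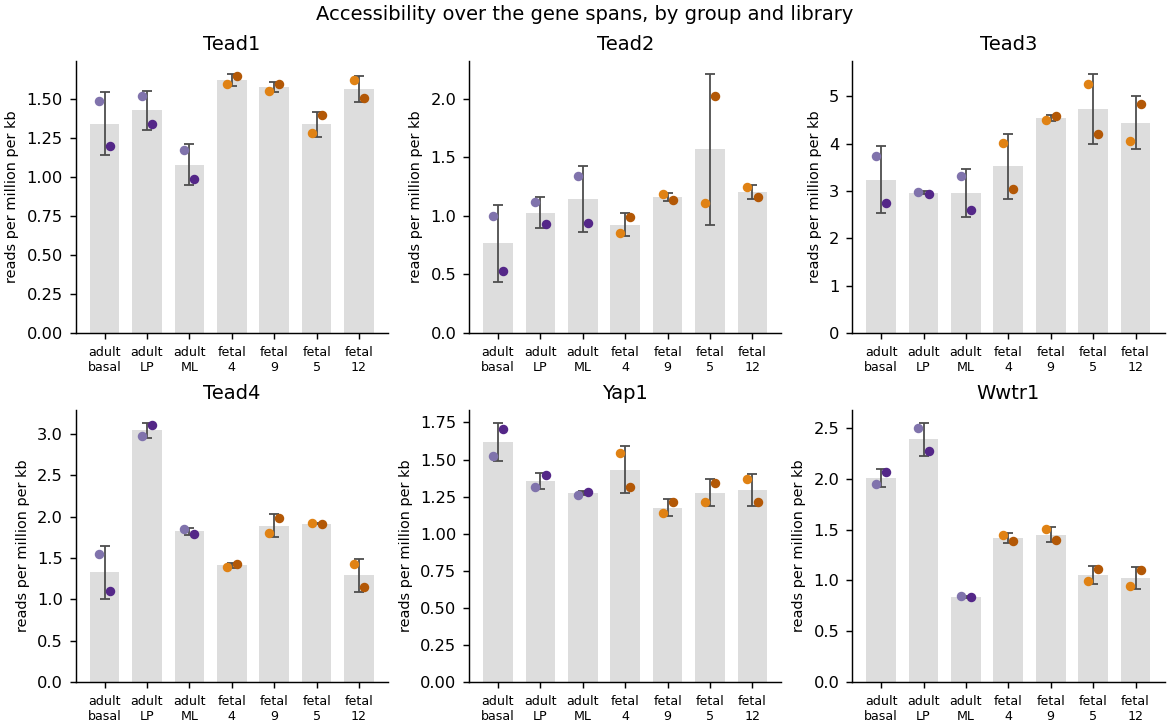
RPM per kb over each of the 6 gene spans (y axes, from 0) in 7 groups of nuclei. Bars are means of 2 libraries, error bars are the SD and points are single libraries. Wwtr1 drops to 0.838 in adult mature luminal nuclei and Tead4 peaks at 3.04 in adult luminal progenitors, while Yap1 stays between 1.18 and 1.62.

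Counted over the 6 genes, 2 passed between basal and progenitor nuclei, where 22.6% of all genes did, and 3 passed between progenitors and mature luminal nuclei, where 22.0% did. All 3 were higher in progenitors, as were 11.1% of genes. Between fetal classes 4 and 9, 0 of 6 passed against 7.70%. The count was 3 of 6 for class 9 against adult progenitors (9.53% of genes) and 1 of 6 for class 4 against adult basal nuclei (8.47%). For the difference between the adult and the fetal step it was 1 of 6 (5.16%), and for class 5 against class 9 it was 1 of 6 (0.685%). TMM scaling centres the genes: with total reads as library size the median of all genes moved to -0.13 in the basal comparison of adults and -0.149 in that of fetal classes. The calls in the former then split 1718 higher and 2546 lower in place of 2124 and 1730, and those in the latter 529 and 991 in place of 834 and 481. The Tead4 difference between fetal classes 4 and 9 then passed as well (adjusted p 0.0373).

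Over whole libraries, 3 of 6 genes differed between stages, where 22.2% of all genes did. Tead1 stood at 350.0 and 354.8 RPM for fetal libraries, against 311.4 and 261.6 for adult ones (log2 0.30, SE 0.09, adjusted p 0.0271, edgeR). Tead3 held 103.0 and 97.6 against 75.3 and 63.0 (log2 0.54, SE 0.11, adjusted p 0.00414). Wwtr1 held 162.6 and 156.7 against 200.8 and 188.7 (log2 -0.29, SE 0.09, adjusted p 0.0419). Leaving out a library lost each call. Tead1 was lost without either fetal library or adult replicate 2, and Tead3 without fetal replicate 2. Wwtr1 was lost without either fetal library or adult replicate 1. Tead1 and Wwtr1 were also lost under DESeq2 (adjusted p 0.0570 and 0.0555), and Wwtr1 with total reads as library size (adjusted p 0.0584). Without adult replicate 2 the Tead1 difference was 0.20. Tead4 fell short (log2 -0.29, adjusted p 0.0529) but passed with the replicate block, with no filter, at a mean of 50 reads and without adult replicate 2 (adjusted p 0.00492 to 0.0472). Tead2 was at 0.21 (adjusted p 0.439) and Yap1 at -0.10 (adjusted p 0.551). The mix of classes differs between stages, so more nuclei of a class and more reads per nucleus cannot be told apart here. Summed stromal markers were also higher in the fetal libraries, at 188 and 185 RPM against 132 and 136, as they were in adult basal nuclei (167 and 155) against progenitors (106 and 112). Their part in the results was not tested.

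**Figure D3:**
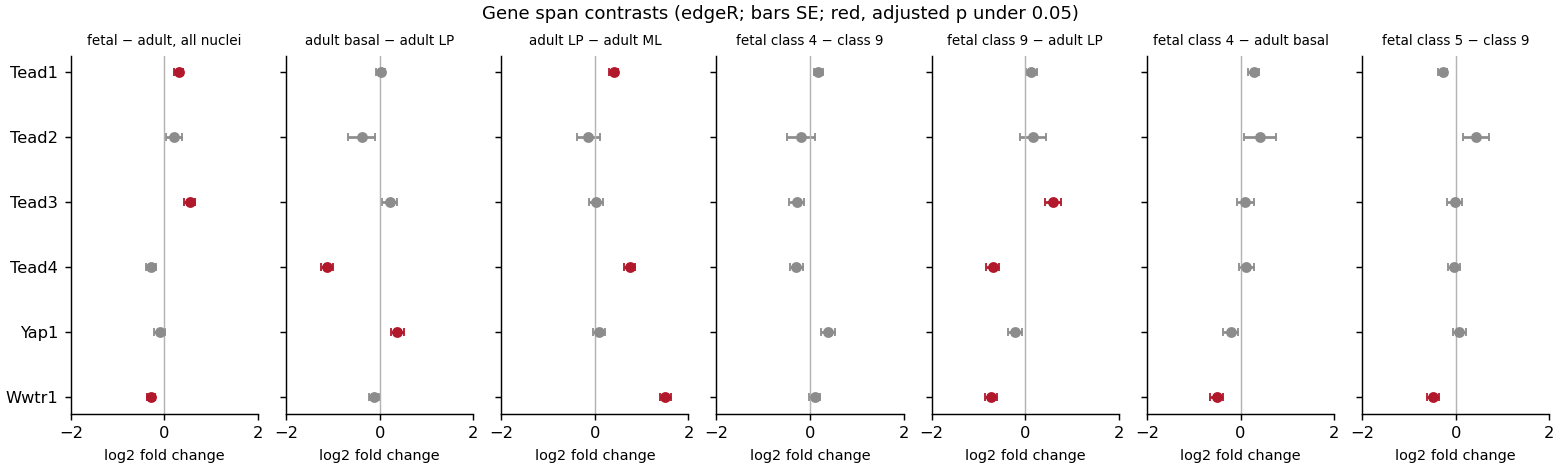
Log2 fold change of the 6 gene spans (x axes, edgeR) in the comparisons named above each panel. Bars are the SE and red points passed an adjusted p of 0.05. The largest values are Wwtr1 at 1.51 between progenitors and mature luminal nuclei and Tead4 at -1.12 between basal nuclei and progenitors.

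At promoters, the Tead3 region chr17:28350307-28351306 rose from 21.5 ± 2.70 RPM in adult to 31.5 ± 0.506 in fetal libraries (SD, n = 2; log2 0.56, SE 0.14, adjusted p 0.00154, edgeR). Not every fetal class was higher: the mean was 19.4 RPM in class 4, beside 22.2 in adult basal nuclei. It was 33.6 in class 9, 34.1 in class 5 and 37.6 in class 12. The Tead4 region chr6:128299925-128300924 was lower in fetal libraries, 23.9 ± 0.733 against 31.3 ± 2.27 (SD, n = 2; log2 -0.37, adjusted p 0.0357), a call lost without any 1 library, under DESeq2 (adjusted p 0.0796) and at the filter of 50 mean reads (adjusted p 0.0548). That made 2 of 10 promoter regions, or 20.0%, beside 21.5% of all promoter regions tested. Between basal nuclei and progenitors 0 of 10 passed against 7.12%. The nearest to passing was a Tead1 region (log2 -0.74, adjusted p 0.099), which passed without fetal replicate 1 or 2 (adjusted p 0.0349 and 0.0441).

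Distal regions within the Wwtr1 gene differed between lineages, each with its own pattern. Here and for the other genes, a region named beside the one with most reads was picked as the called region with the largest change in a comparison. Such a region can have passed the filter on low reads only through the group where it is high, so its values in that comparison are a description and its p is no support. The region with most reads, chr3:57501321-57502320, lies 74.1 kb inside the gene from its promoter end. It held 31.0 and 30.8 RPM in adult basal nuclei, 39.2 and 31.7 in progenitors, and 8.53 and 6.60 in mature luminal nuclei. Mature luminal values were far below the rest (progenitor minus mature luminal 1.90 on the log2 scale, adjusted p 3.76e-07, edgeR). A second region, chr3:57485625-57486624, was open mainly in progenitors, with 105 and 72 reads there, 4 and 10 in basal nuclei and 2 and 1 in mature luminal nuclei. The pooled ratio of progenitor to mature luminal RPM was 83.5 (95% counting interval 28.1 to 409, on 177 against 3 reads). The third, chr3:57554067-57555066, was basal: 16.7 and 14.02 RPM against 0.43 and 2.33 in progenitors (log2 3.57, adjusted p 2.25e-05). The values were 10.3 and 11.9 in fetal class 4 and 3.53 and 4.51 in class 9. That fetal difference did not pass (log2 1.56, SE 0.69, adjusted p 0.217, edgeR). Among adult groups the second region held most reads in progenitors, and the third was picked for the comparison of basal and progenitor nuclei. Their opposite directions in that comparison are therefore a description. Mean Wwtr1 span levels were 2.01 in basal and 2.39 in progenitor nuclei. In the second, basal minus progenitor was -2.69, a call lost without adult replicate 1 or 2. In the third, the difference was 2.53 without adult replicate 1 (adjusted p 0.0980) and 5.19 without adult replicate 2.

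**Figure D4:**
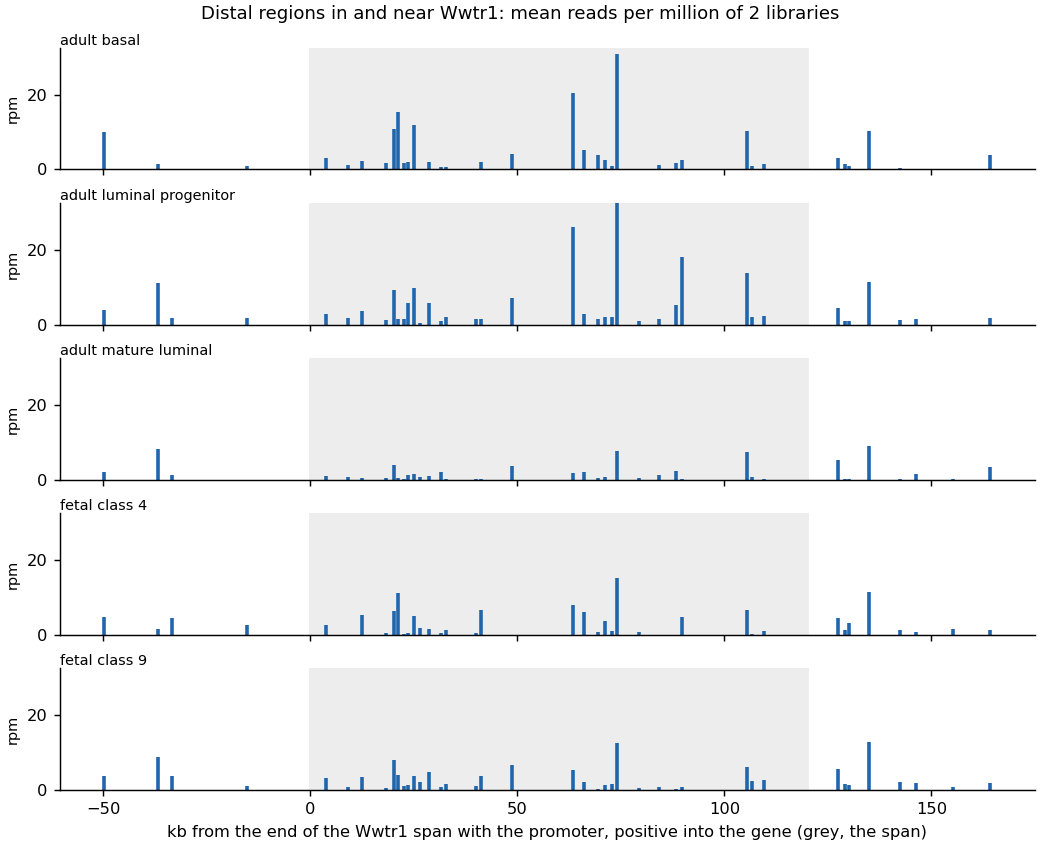
Mean RPM of 2 libraries (y axes) in each distal region near Wwtr1, by kb from the promoter end of the span (x axis, positive into the gene, span in grey), for the groups named above each panel. The region at 74.1 kb is tall in basal nuclei and progenitors, the one at 89.8 kb in progenitors and the one at 21.3 kb in basal nuclei.

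Single Wwtr1 regions were also picked for a difference between stages or between fetal classes, so these differences are descriptions. The region chr3:57486995-57487994 had 0 and 6 fetal reads against 47 and 54 adult reads (log2 -3.49). Without fetal replicate 2, which leaves 0 fetal reads, the difference was -8.32. Within fetal nuclei, chr3:57526689-57527688 held 0 and 0 reads in class 4 and 11 and 61 in class 9. It was at least 10.3-fold lower in class 4, taking 3 reads over the group as the floor, and the call was lost without fetal replicate 2. Of low distal counts 80.9% were even. Whether reads were listed in pairs from 1 fragment was not tested. Intervals and floors take reads as independent and cover counting error only. Reads listed in pairs would make these intervals too narrow.

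Tead1 had a region that was picked for its basal difference at both stages, so both differences are descriptions. The region chr7:112713217-112714216 held 26.6 and 15.0 RPM in adult basal nuclei, 2.56 and 3.11 in progenitors and 0.70 and 0.24 in mature luminal nuclei (basal minus progenitor 2.83, adjusted p 1.34e-06, edgeR). Among fetal nuclei it held 13.4 and 18.3 in class 4 and 1.76 and 4.21 in class 9 (log2 2.45, adjusted p 0.000763), and 35.0 and 26.6 in class 12. Without adult replicate 1 the adult difference was 2.22 (adjusted p 0.0412). The fetal call was lost without either fetal library. Outside the gene, chr7:112641492-112642491 was picked as the Tead1 region with the largest stage difference, which is therefore a description. It stood at 6.47 and 9.37 RPM in fetal and 1.32 and 0.62 in adult libraries (log2 3.14). Without adult replicate 2 the difference was 2.54.

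At Tead4, chr6:128295923-128296922 held most reads and was highest in progenitors. It lies in the gene span, so its reads are also part of the level of the span. It stood at 37.8 and 27.8 RPM in basal nuclei, 73.3 and 72.1 in progenitors and 24.02 and 18.1 in mature luminal nuclei (progenitor minus mature luminal 1.47, adjusted p 4.55e-09, basal minus progenitor -1.12, adjusted p 4.66e-05, edgeR). The basal call was lost without adult replicate 2 (adjusted p 0.102). Fetal classes 4 and 9 overlapped here, at 42.2 and 41.8 against 40.9 and 50.3 (log2 -0.02). A region beyond the gene ran the other way: chr6:128338880-128339879 held 19.2 and 21.5 in basal nuclei, 4.47 and 6.42 in progenitors, 34.0 and 27.0 in fetal class 4 and 9.52 and 13.97 in class 9. Its basal excess passed in the adult (1.95, adjusted p 4.26e-05, edgeR). The region was picked for its fetal difference of 1.41, which is therefore a description. That fetal call was lost without either fetal library and with no filter on low counts (1.04, adjusted p 0.340, edgeR).

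At Tead3 the largest called stage and progenitor minus mature luminal changes met in a region outside the gene. There chr17:28290040-28291039 held 140 and 205 reads in mature luminal nuclei and 16 and 4 in progenitors. It was lower in fetal libraries (log2 -2.60, and -3.79 without fetal replicate 2). The region was picked for both differences, which are therefore descriptions. Near Tead2, chr7:45191429-45192428 was higher in mature luminal nuclei than in progenitors (log2 -2.58), a call lost without adult replicate 1 or 2. It was picked for this difference, which is therefore a description. Within the Yap1 span, chr9:7972500-7973499 was lower in fetal libraries (log2 -2.24), and at -3.24 without fetal replicate 2. Outside it, chr9:7902398-7903397 and chr9:7907270-7908269 were higher in progenitors than in mature luminal nuclei (log2 2.81 and 2.91). The former was also higher in basal nuclei than in progenitors (log2 1.55). The differences of -2.24, 2.91 and 1.55 are descriptions, because each region was picked for it.

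Counted over all distal regions of the 6 genes, 45 of 173 tested passed between stages, or 26.0%, against 35.3% of all distal regions. Between basal and progenitor nuclei 16 of 61 passed (26.2% against 24.5%), between progenitors and mature luminal nuclei 17 of 61 (27.9% against 35.7%), and between fetal classes 4 and 9, 3 of 61 (4.92% against 3.99%). These shares lie near or below the background, so the genes are described by their single regions and not by an excess of calls. Of the co-accessibility scores that the authors deposited, the Tead3 promoter had 23 of 136 pairs over 0.1, or 16.9%, where all promoters had 3.50%. The highest, 0.335, was with a promoter 37.5 kb away. Tead3 alone of the set had pairs over 0.25, 6 of 136, where 0.444% of all promoter pairs were.

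The Hippo kinases and regulators, 19 genes, changed in both directions. Between basal nuclei and progenitors 3 rose and 3 fell, 6 of 19 where 22.6% of all genes passed, with a median log2 difference of 0.0343 where that of all genes was -0.0120. Amotl1, an angiomotin that holds YAP and TAZ outside the nucleus, stood at 312 and 292 RPM in basal nuclei and 151 and 127 in progenitors (log2 1.24, adjusted p 4.4e-13, edgeR). Amotl2, another angiomotin of the list, went the other way, at 106 and 75.6 against 156 and 164 (log2 -0.74, adjusted p 3.55e-05), at -0.45 without adult replicate 2 (adjusted p 0.216). Wwc1 (KIBRA), an activator of LATS kinases, was lower in basal nuclei, at 117 and 125 against 239 and 250 (log2 -0.89, adjusted p 2.46e-09). Between fetal classes 4 and 9, 3 of 19 passed against 7.70% of all genes: Amotl1, Amotl2 and Wwc1, by 0.73, -0.55 and -0.53, and each call rested on a library. Ptpn14, which had the largest basal minus progenitor difference of the list (1.49), was at 0.31 there (adjusted p 0.0677). Amotl1 was at 0.44 without fetal replicate 1 (adjusted p 0.105) and at 1.13 without fetal replicate 2. Calls were lost for Wwc1 without fetal replicate 2 (adjusted p 0.212) and for Amotl2 without either library (adjusted p 0.0580 and 0.213). Between progenitors and mature luminal nuclei 6 rose and 1 fell, against 22.0% of all genes called, with a median of 0.112. Lats2 was among the 6 (log2 0.99, adjusted p 7.52e-07), at 82.9 and 89.8 against 46.8 and 40.7 RPM. Between stages 5 were higher in fetal libraries and 2 lower, against 22.2%. Class 4 against adult basal nuclei gave 0 calls, against 8.47%, with a median of -0.247.

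The VGLL genes, whose products compete with YAP and TAZ for TEAD, were led by Vgll3. It stood at 92.3 and 122 RPM in adult basal nuclei, 19.4 and 23.7 in progenitors and 11.1 and 18.5 in mature luminal nuclei, while fetal class 4 (62.8 and 45.4) and class 9 (45.5 and 49.4) overlapped. Adult basal nuclei lay above every other group. Their excess over progenitors was 2.43 on the log2 scale (SE 0.21, adjusted p 4.36e-16, edgeR), and the adult step exceeded the fetal one by 2.18 (SE 0.29, adjusted p 1.07e-07). Between stages, where 22.2% of all genes passed, 2 of 4 VGLL genes were higher in fetal libraries, namely Vgll2 (13.3 and 15.6 against 3.09 and 5.13, log2 1.80, adjusted p 0.000699) and Vgll4 (log2 0.30, adjusted p 0.0145). The Vgll4 call was lost without either fetal library or adult replicate 2 (adjusted p 0.0570 to 0.139).

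A list of 22 reported targets of YAP, TAZ and TEAD moved in both directions between lineages. Of these, 9 rose and 5 fell in basal nuclei against progenitors, where 22.6% of all genes passed (median log2 0.167, where all genes had -0.0120). Igfbp3, an insulin-like growth factor binding protein, stood at 51.4 and 53.6 RPM in basal nuclei and 5.75 and 9.72 in progenitors (log2 2.87, SE 0.28, adjusted p 2.45e-13, edgeR), and Ptpn14, a phosphatase that restrains YAP, at 394 and 351 against 133 and 153 (log2 1.49, adjusted p 3.74e-19). Dock5, a guanine nucleotide exchange factor, fell (log2 -0.93, adjusted p 9.82e-08). Ccn1, a matricellular protein, also fell (log2 -0.75, adjusted p 0.000186), lost without adult replicate 2 (adjusted p 0.130). Ptpn14, Amotl2 and Lats2 are also in the Hippo list.

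Between progenitors and mature luminal nuclei 9 targets rose and 4 fell, against 22.0% of all genes called (median 0.232, all genes -0.00164). Ccn2 (CTGF), the usual reporter of YAP and TAZ activity, stood at 32.6 and 43.4 RPM in progenitors and 4.35 and 4.40 in mature luminal nuclei (log2 3.11, SE 0.27, adjusted p 6.81e-16, edgeR). Tgfb2, a TGF-beta ligand, stood at 188 and 200 against 51.7 and 51.7 (log2 1.91, adjusted p 1.94e-20). Tissue factor F3 ran against them (log2 -0.84, adjusted p 1.2e-05). Between classes 4 and 9, 4 rose and 2 fell, against 7.70%. Of these 6, the 2 with the largest change in each direction (Crim1, Axl, Gadd45b and Amotl2) were each lost without at least 1 of the fetal libraries (adjusted p 0.0580 to 0.338). Class 4 against adult basal nuclei (8.47% of all genes) gave 0 higher and 2 lower, Crim1 (-0.86, adjusted p 0.000421) and Nt5e (-1.10, adjusted p 0.00300), with a median of -0.226, and class 5 against class 9 (0.685%) gave 1, Myof (-0.55, adjusted p 0.00823). Nt5e was lost without fetal replicate 2 or adult replicate 2 (adjusted p 0.130 and 0.128), and Myof without fetal replicate 1 (adjusted p 0.474). Between stages 6 targets were higher in fetal libraries and 5 lower, against 22.2%, with Igfbp3 (log2 1.18, adjusted p 0.000672) and Crim1 (log2 -0.71, adjusted p 0.000317) among them. Of the target windows searched for the TEAD word, 7 of 17 held it, or 41.2%, and of the Hippo windows 6 of 19, or 31.6%, where 14.7% of all windows did. These windows cover 15 of the 22 targets and 17 of the 19 Hippo genes. Amotl2, Lats2 and Ptpn14 hold the word and stand in both lists, so the 2 shares are not separate. Without them the word stood at Mob1a, Sav1 and Wwc2 among the Hippo genes.

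**Figure D5:**
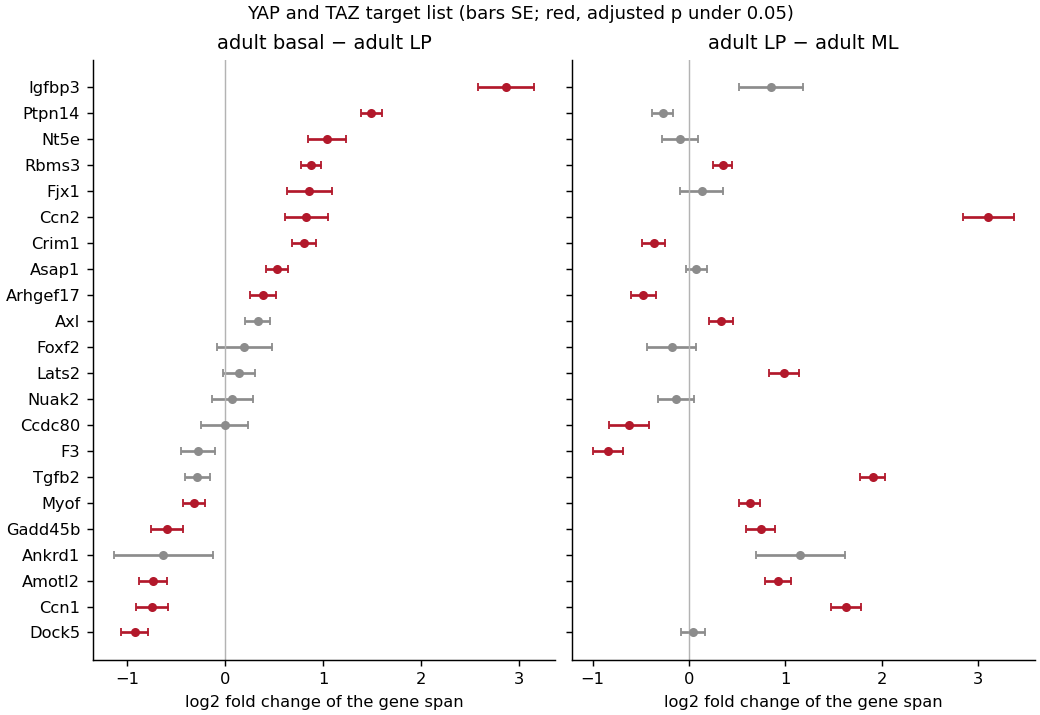
Log2 fold change of the gene spans of the target list (x axes, edgeR) in the comparisons named above each panel. Bars are the SE and red points passed an adjusted p of 0.05. Igfbp3 reaches 2.87 in basal nuclei against progenitors and Ccn2 reaches 3.11 in progenitors against mature luminal nuclei.

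Other genes followed single members closely over the 14 classes, measured as Pearson r of log2 of RPM plus 2, among genes averaging 50 or more reads per class. The Tead4 gene was most like Ehf (r 0.954), an epithelial ETS factor, Krt8 (0.953), a luminal keratin, and Kazn (0.949). Wwtr1 was most like Slc10a7 (0.939), Irs2 (0.898), an insulin receptor substrate, and Rad52 (0.893), a DNA repair gene. Tead1 was most like Wdr41 (0.893), Actg1 (0.892), a cytoplasmic actin, and Rps6ka4 (0.890). Tead3 was most like Anks1 (0.902), then Msi2 (0.889) and Tmem191c (0.883), and Yap1 like Kctd21 (0.918), Ankra2 (0.889) and 1700037H04Rik (0.876). For Tead2 they were Pbx2 (0.863), Ubxn11 (0.858) and Taf2 (0.856). Among the members themselves, Tead1 and Tead3 had an r of 0.601 and Yap1 and Tead4 of -0.400.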

How the data were processed

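Nuclei were profiled by single-nucleus ATAC-seq in 4 libraries grouped by stage from their labels. Per the submitters' processing notes the build is mm10, and Bowtie2, MACS2 and bedtools were named without versions. The authors deposited read positions per barcode, lists of kept nuclei, region lists of 1000 bases, chromVAR scores with class numbers, and Cicero pair scores. The score values were deposited by the authors and used as they stood. Read counts were made here from the authors' deposited read positions, by overlap of at least 1 base with gene spans plus 2000 bases on either side and with the deposited regions. A deposited gene score table of 7846 numbered columns named no sample and was not used. No doublet caller was run, and exon or intron positions were not analysed here.

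Counts were summed per library or per group and library and tested with edgeR 4.0.16 (quasi-likelihood, TMM, mean of at least 10 reads), with Benjamini-Hochberg adjustment over all genes or regions and a threshold of 0.05. The SE is the absolute log2 fold change over the square root of F. Mean scores were tested with limma 3.58.1. Fits used R 4.3.3, and counting used Python 3.11.15 with numpy 2.4.6 and pandas 2.3.3. Contrasts within a stage, or of such contrasts, had the library as a block, and the fit over classes shared 1 spread over 14 columns. The promoter read share differed from 17.9% in class 8 to 27.1% in class 7, so the groups pool classes with unlike promoter shares. Scripts were tested on simulated data.

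The genes, lists and tests were chosen with earlier results of these data known. All 6 genes are reported whatever their values. In each gene's neighbourhood the distal region with most reads and the called one with the largest change per contrast were eligible to be named, and of each list the 2 largest called changes in each direction per contrast. Lats2 and Vgll4 stand within that rule, as do the 3 genes most like each member. Alternatives were total reads as library size, no filter or a mean of 50 reads, DESeq2 1.42.0, spans without flanks, the block added or dropped, and each library left out.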

Additional observations from a re-analysis of the deposited data

Results flagged for a closer look

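In the 6 results named here the step from luminal to basal nuclei differed between adult and fetus by a test of the difference of the 2 steps (edgeR or limma, Benjamini-Hochberg adjusted over all genes or motifs). Beside the 6 genes and 2 motifs, genes are named up to the 2 largest called changes in each direction of a list: 5 of 22 targets passed (4 higher and 1 lower), 1 of 19 Hippo genes and 1 of 3 VGLL genes tested, where 5.16% of all genes did. For the Tead4 gene span the difference was -0.83 on the log2 scale, and for the Tead4 motif score it was 0.64, where 25.1% of all motifs passed. Both calls rest on single libraries: the gene was at -0.54 without adult replicate 2 (adjusted p 0.325), and the score did not pass without fetal replicate 2 or adult replicate 1 (adjusted p 0.0780 and 0.157). At the gene, adult basal nuclei lay further below progenitors than fetal class 4 lay below class 9. In the score, adult basal nuclei lay above progenitors, whereas the fetal difference of -0.26 between class 4 and class 9 did not pass. The score cannot be assigned to the Tead4 gene alone. Vgll3 differed by 2.18, Igfbp3 by 2.98 and Ptpn14 by 1.18, so in each the basal minus luminal difference was higher in the adult. Dock5 differed by -1.13, so there it was lower in the adult. Fetal class 4 raised fewer basal markers than the adult classes: its summed basal markers were 628 and 682 RPM, against 1375 and 1185 in adult basal nuclei. How far this bears on the 6 differences was not tested. With 2 libraries a group, no test for outlying libraries was run.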

How the results depend on the processing

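No called difference of the 6 gene spans or 2 motif scores changed direction under any alternative tried. Of the repeated fits of the gene spans, 417 kept direction and side of the threshold, 35 lost the call, 5 gained it and 23 changed sign. For motif scores 100 kept both, 6 lost the call and 6 changed sign. Every sign change was in a difference that had not passed, and the cause was not tested. The calls that no alternative lost were Tead4 and Wwtr1 in progenitors against mature luminal nuclei, Tead4 in basal nuclei against progenitors, Wwtr1 in class 9 against adult progenitors, both motifs in progenitors against mature luminal nuclei, and the Tead4 motif in class 4 against adult basal nuclei.

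The differences that changed sign were as follows. With total reads as library size, Tead1 between basal nuclei and progenitors was at -0.10, class 5 minus 9 at 0.029 for Tead3 and 0.011 for Tead4, the difference of steps at 0.0085 for Yap1, and class 4 minus 9 at -0.035 for Wwtr1. Without flanks, the difference of steps was 0.14 for Tead2 and 0.10 for Yap1, progenitor minus mature luminal -0.093 for Tead3, and class 5 minus 9 -0.045 for Yap1. With no filter Tead1 between basal nuclei and progenitors was at -0.0030. At or above the median depth the Tead3 motif in class 4 minus 9 was at 0.0079. With a mean of at least 50 reads the Tead4 region with most reads was at 0.14 in class 4 minus 9.

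Leaving out 1 library gave -0.033 to 0.083 for Tead1 between basal nuclei and progenitors. Tead2 ran from -0.037 to 0.46 between stages, -0.49 to 0.13 in the difference of steps, -0.14 to 0.78 in class 5 minus 9 and -0.047 to 0.81 in class 4 minus adult basal. Tead3 ran from -0.12 to 0.14 between progenitors and mature luminal nuclei, and from -0.17 to 0.18 and -0.11 to 0.30 in the last 2 comparisons given for Tead2. In those same 2 Tead4 ran from -0.11 to 0.048 and -0.11 to 0.34, and Yap1 ran from -0.20 to 0.13 in the difference of steps. The Tead3 motif ran from -0.050 to 0.26 between basal nuclei and progenitors, -0.24 to 0.13 in class 4 minus 9 and -0.024 to 0.35 in the difference of steps, and the Tead4 motif from -0.054 to 0.18 between stages. The Tead4 region with most reads ran from -0.15 to 0.052 in class 4 minus 9.

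Counts of calls over all genes that moved by more than 1.5 times were, under DESeq2, 543 for the adult minus fetal step and 77 for class 5 against class 9. With the replicate block the stage count was 6423. With no replicate block the counts were 723 for class 4 against 9, 473 for the difference of steps and 41 for class 5 against 9. With a mean of at least 50 reads, distal calls were 15301 (stage), 893 (basal against progenitor), 1211 (progenitor against mature luminal) and 296 (class 4 against 9), with fewer regions tested, and promoter calls were 186 for basal against progenitor. DESeq2 gave 24872 distal and 2622 promoter calls between stages, and 588 promoter calls between basal and progenitor nuclei.

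Leaving out 1 library at a time gave, for gene spans, 1813 to 4460 calls between stages, 1628 to 4748 for basal against progenitor, 1425 to 4751 for progenitor against mature luminal, 714 to 993 for class 4 against 9, 218 to 792 for the difference of steps, 67 to 82 for class 5 against 9, 631 to 1011 for class 9 against adult progenitors and 441 to 859 for class 4 against adult basal. For motifs, in the same order, the ranges were 209 to 265, 183 to 264, 201 to 275, 100 to 175, 59 to 78, 40 to 121, 161 to 246 and 102 to 189. For distal regions they were 30355 to 42172, 2299 to 13530, 4649 to 19721 and 227 to 1048 in the first 4 comparisons. For promoters they were 2514 to 3057 and 107 to 1549 in the first 2. A group left with 1 library was assumed to vary like the others.

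The labels do not say that equal replicate numbers share a litter or day. Deviations of same-numbered fetal and adult libraries had an r of 0.269 for gene spans, 0.0401 for distal regions, 0.0585 for promoters and 0.449 for motifs, over features and 2 pairs only. With the replicate block the Tead4 span passed between stages (adjusted p 0.00492). Depth limits the small groups most: a region with a mean under 10 reads per column was not tested.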
